A study of Drosophila melanogaster with 3 samples.

Results

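Deep intronic peaks of CG31627 were the binding sites whose summit lay inside a gene, outside every annotated exon and more than 5000 bp from the start site of any annotated transcript. They numbered 1084 of the 7717 peaks that passed the authors' IDR threshold (IDR, the irreproducible discovery rate, measures how well peak ranks repeat between replicates). The choice used position alone and no measured height. The data came from chromatin immunoprecipitation and sequencing in 3 biological replicates of 1 group: whole Drosophila melanogaster white prepupae, males and females together, of a transgenic line that carries CG31627 fused at its C-terminus to eGFP. The fusion protein was precipitated with an antibody against GFP. Each library was made from whole animals, so binding in fewer cells and weaker binding in each cell cannot be told apart. Control data were not analysed here. The peak lists carry no counts of reads, and library depth is therefore unknown. The 3 replicates are numbered by the labels. The text uses each library's 7717 strongest peaks, as many as the IDR-thresholded list holds.

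Introns are removed from RNA before translation, and in the fly the long ones often hold enhancers, stretches of DNA that switch a gene on in particular cells and stages. The white prepupa marks the onset of metamorphosis, when a pulse of the steroid hormone ecdysone sets off a cascade of transcription factors. Several genes of that cascade have long introns and several alternative start sites.

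The sequences below are centred on the summits of the 6 strongest deep intronic peaks, and of the 2 strongest peaks with the DNA replication-related element TATCGATA, a word common at fly housekeeping promoters. They are shown because the report turns on the strongest sites and on base composition, in which these sequences differ. They read 5′ to 3′ on the plus strand of the Release 6 genome from RefSeq, in dm6 coordinates. Capitals mark, on either strand, the words TATAAA and TTTAAAAA, as well as TATCGATA or its core word CGATA. The CG32486 sequence is chr3L:3060693-3060893 and that of Eip75B is chr3L:18011808-18012008. The Raf sequence is chrX:2300613-2300813. The summit shared by Su(Tpl) and Mi-2, genes whose bodies overlap there, is shown from chr3L:19903181-19903381. The Hr4 sequence is chrX:1947654-1947854 and that of gpp is chr3R:6424012-6424212. The sequences with TATCGATA are chr3R:6397813-6398013 in Dmtn and chrX:19371559-19371759 in kek5.
CG32486: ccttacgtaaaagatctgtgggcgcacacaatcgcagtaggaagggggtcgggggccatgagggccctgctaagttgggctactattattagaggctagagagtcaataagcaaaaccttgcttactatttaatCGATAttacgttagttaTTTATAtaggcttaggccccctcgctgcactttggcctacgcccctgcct
Eip75B: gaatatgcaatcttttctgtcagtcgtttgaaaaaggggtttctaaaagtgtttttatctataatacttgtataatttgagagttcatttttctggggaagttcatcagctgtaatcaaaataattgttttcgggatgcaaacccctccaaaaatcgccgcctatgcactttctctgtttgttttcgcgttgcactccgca
Raf: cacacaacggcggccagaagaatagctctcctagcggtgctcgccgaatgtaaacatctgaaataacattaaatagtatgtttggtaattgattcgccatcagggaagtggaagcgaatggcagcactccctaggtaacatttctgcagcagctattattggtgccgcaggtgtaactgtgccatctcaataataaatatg
Su(Tpl)/Mi-2: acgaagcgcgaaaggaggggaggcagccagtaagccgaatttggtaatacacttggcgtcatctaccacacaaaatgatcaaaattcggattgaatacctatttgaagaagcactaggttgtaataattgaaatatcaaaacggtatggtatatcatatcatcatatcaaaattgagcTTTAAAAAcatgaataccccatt
Hr4: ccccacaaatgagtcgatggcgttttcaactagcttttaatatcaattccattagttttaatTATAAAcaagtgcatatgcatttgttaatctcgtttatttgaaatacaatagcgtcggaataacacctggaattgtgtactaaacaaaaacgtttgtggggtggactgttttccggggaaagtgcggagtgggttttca
gpp: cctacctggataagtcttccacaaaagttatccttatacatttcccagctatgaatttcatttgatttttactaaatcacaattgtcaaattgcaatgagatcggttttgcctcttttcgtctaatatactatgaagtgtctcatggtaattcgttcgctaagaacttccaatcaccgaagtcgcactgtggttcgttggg
Dmtn: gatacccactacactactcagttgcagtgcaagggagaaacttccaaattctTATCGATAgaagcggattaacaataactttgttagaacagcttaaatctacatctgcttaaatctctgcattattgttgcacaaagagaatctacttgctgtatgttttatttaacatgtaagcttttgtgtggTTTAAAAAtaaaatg
kek5: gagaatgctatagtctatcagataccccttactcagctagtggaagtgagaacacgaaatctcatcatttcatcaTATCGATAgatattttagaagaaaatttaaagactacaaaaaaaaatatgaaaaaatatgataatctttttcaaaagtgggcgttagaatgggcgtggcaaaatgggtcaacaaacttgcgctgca

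The central 101 bases of the 6 strongest had an A+T content of 58.4% in CG32486, 67.3% in Eip75B, 60.4% in Raf, 66.3% in Su(Tpl)/Mi-2, 72.3% in Hr4 and 70.3% in gpp. The strongest of all, in CG32486, thus had the lowest A+T content of the 6. None of these 6 printed stretches held TATCGATA.

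Deep introns held fewer CG31627 summits per length than introns nearer a start site, and more than intergenic DNA equally far away. Their share of the IDR-thresholded summits was 14.0%. Among the strongest peaks of single libraries, deep introns held 1070 in replicate 1, 1149 in replicate 2 and 1067 in replicate 3, which is 14.2 ± 0.603% (SD, n = 3). Deep intron made up 21.1% of the 6 chromosome arms. The density there was 37.8, 40.6 and 37.7 summits per Mb in replicates 1, 2 and 3, against 79.1, 80.4 and 76.1 per Mb in introns within 5 kb of a start site. The groups did not overlap. The ratio of deep to near intron was 0.493 ± 0.0137 (SD, n = 3) and lay below 1 in 3 of 3 libraries. An exact sign-flip permutation test over the 3 libraries, two-sided, gave p = 0.25, the smallest value that 3 libraries allow, and the same holds for each ratio and difference tested below. The ratio of deep intron to intergenic sequence more than 5 kb from a start site was 1.72 ± 0.0805, above 1 in 3 of 3 libraries. Those 2 compartments differ in repeat content: 81.3% of deep intron and 59.5% of the deep intergenic sequence consists of unique 31-base words. Per Mb of unique sequence, the pooled densities were 47.2 in deep intron and 37.4 in deep intergenic DNA.

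The density in introns fell with distance over the bins used. Introns 5 to 10 kb from a start site held 606 summits, or 53.7, 56.2 and 53.3 per Mb in replicates 1, 2 and 3. At 10 to 20 kb there were 365 summits and 42.4, 47.0 and 43.3 per Mb. At 20 to 50 kb there were 112 summits and 22.9, 25.1 and 21.4 per Mb. These 3 bins did not overlap between libraries. Per Mb of unique sequence their pooled densities were 60.2, 48.3 and 29.7. Beyond 50 kb lay 1 summit, 51839 bp from the nearest start site in luna, which encodes a zinc-finger transcription factor of the Krüppel-like family. Sequence that far from a start site was only 42.7% unique. The median distance of the 1084 summits was 9227 bp and the shortest was 5003 bp.

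**Figure D1:**
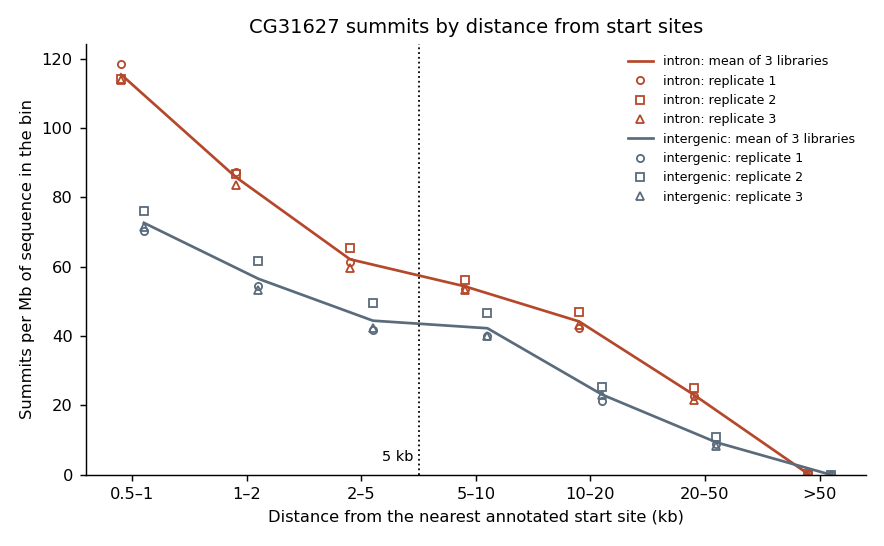
Summits per Mb (vertical axis) in intronic (red) and intergenic (grey) sequence by distance from the nearest start site in kb (horizontal axis, bins of unequal width); symbols are the 3 libraries and lines their means. From 5 kb outward the intronic density drops from bin to bin and stays above the intergenic one up to 50 kb.

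The 5000 bp limit cuts through a continuous range. The members closest to it lay 5003 bp from a start site in Ork1, 5005 bp in lncRNA:CR43314 and 5017 bp in cno, with pooled signal ranks of 6415, 5323 and 5721. The nearest intronic summits on the other side lay at 4991 bp in cv-c, 4991 bp in tara and 4982 bp in Lrch, with ranks 481, 3302 and 1634. In the 500 bp beyond the limit there were 94 intronic summits with a median authors' signal of 177, and in the 500 bp before it 107 with a median of 186.

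The density also differed by position within the intron. First introns of a transcript held 62.2, 64.7 and 61.9 deep intronic summits per Mb in replicates 1, 2 and 3, against 26.7, 29.7 and 26.7 per Mb in sequence that is only in later introns. The groups did not overlap. Within 5 to 20 kb of a start site, where repeats are fewer, first introns had 69.4 ± 1.40 and later introns 38.0 ± 2.29 summits per Mb (SD, n = 3 each). The sequence within 250 bp of an exon had 11.9 ± 1.22 summits per Mb, that between 250 and 500 bp had 23.0 ± 4.04, and that between 2 and 5 kb had 49.7 ± 2.61. Summits were thus sparsest next to exons.

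The arms differed in their density of deep intronic summits, in the order that all IDR-thresholded summits also showed. The X chromosome held 271 of them, or 46.2, 52.9 and 50.7 per Mb of deep intron in replicates 1, 2 and 3. Arm 2L followed with 43.7, 49.1 and 45.0 per Mb, and these ranges overlapped with those of X. Arm 3L had 37.7 ± 1.98, arm 3R had 34.0 ± 1.52 and arm 2R had 31.4 ± 1.25 per Mb (SD, n = 3). In the pooled list the densities were 50.5 on X, 44.2 on 2L, 38.9 on 3L, 33.5 on 3R and 29.5 on 2R. Per Mb of unique sequence they were 56.3, 48.9, 48.7, 45.1 and 37.8, in the same order. All summits together had 62.9, 59.5, 58.8, 56.2 and 53.5 per Mb on X, 2L, 3L, 3R and 2R. The small chromosome 4, with 0.259 Mb of deep intron, held no member in the pooled list and 1 summit in replicate 1.

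Deep intronic peaks had a median rank by the authors' signal of 4239.5 of 7717, against 3742.5 for near-intron peaks and 3546 for promoter peaks, those within 500 bp of a start site. Intergenic peaks had medians of 4207.5 within 5 kb and 4303 beyond it, and exon peaks outside promoters 4820, so deep intronic peaks ranked like intergenic ones. They made up 10.7% of the 1929 strongest IDR-thresholded peaks and 17.1% of the 1930 weakest. Among pooled peaks that missed the IDR threshold but had q at or under 0.05, 910 of 5250 were deep intronic, or 17.3%. The interval was 404 bp wide for 608 members, a width shared by many peaks of every location, and it ran between 101 and 500 bp.

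The replicates recovered deep intronic peaks about as often as other peaks. All peaks compared here had passed a threshold on how well ranks repeat between replicates. Their recovery is therefore no independent check of them. A library summit among its 7717 strongest lay within 250 bp of 91.2% of the members in replicate 1, 89.7% in replicate 2 and 89.4% in replicate 3. All 3 libraries did so for 830 members, or 76.6% (95% Wilson interval 74.0% to 79.0%, which treats peaks as independent), beside a background of 77.5% over all IDR-thresholded peaks. Of the 207 members among the 1929 strongest peaks, 207 were recovered in all 3 libraries, beside 99.7% of all peaks of that rank, and of the 329 members among the 1930 weakest 31.3%, beside 28.2%. Among the 1929 peaks just above the weakest the share was 92.0% for deep intronic peaks, 91.6% for intergenic peaks beyond 5 kb, 88.9% for near-intron peaks and 77.4% for promoter peaks, with 84.7% over all. For 188 members 2 libraries had such a summit, for 64 members 1 library, and for 2 members none: a summit in sano of pooled rank 7541 and one in CG42238 of rank 7620. Between 54 and 58 members in each library shared their library summit with another member.

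The strongest deep intronic peak lay in intron 1 of CG32486 (FBgn0266918), at 3L from 3060560 to 3061046, 5714 bp from the nearest start site. It ranked 9 of 7717 in the pooled list and 8, 7 and 17 in replicates 1, 2 and 3. The next one lay in Eip75B (FBgn0000568), which encodes the ecdysone-induced nuclear receptor E75, at 3L from 18011648 to 18012129. It ranked 18, 28 and 20 in replicates 1, 2 and 3 and lay 12087 bp from the nearest start site. Both ranked far above the rest of the deep intronic peaks in every library.

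The other strong deep intronic peaks lay in genes of varied function. Raf, a kinase of the Ras pathway, held a peak of rank 82, 70 and 53 in replicates 1, 2 and 3. The peak shared by Su(Tpl), which encodes the elongation factor ELL, and Mi-2, a nucleosome remodeller, ranked 61, 83 and 66. Hr4, which encodes a nuclear receptor, followed with 97, 164 and 134, and gpp, the Dot1 histone methyltransferase gene, with 125, 94 and 199. These 4 summits thus stayed within the strongest 199 peaks of each library. In the Dpp pathway, the fly branch of BMP signalling, the transcription factor gene shn ranked 218, 238 and 285 and the inhibitory Smad gene Dad 204, 309 and 327. The Ski/Sno family gene Snoo ranked 265, 196 and 357. Psc, a Polycomb group gene, held a peak of rank 321, 284 and 268. The growth regulator gene Myc, overlapped here by lncRNA:CR44999, had ranks of 303, 288 and 322, and arr, a Wnt co-receptor gene, 279, 320 and 399. In tai, which encodes a coactivator of the ecdysone receptor, the ranks spread most among these 20 in absolute terms, with 414, 538 and 204. The others of the 20 lay in Ptp61F, CG42238, kirre, RhoGAP19D, ush, Pgant9 and Prosap, with pooled ranks between 157 and 311.

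**Figure D2:**
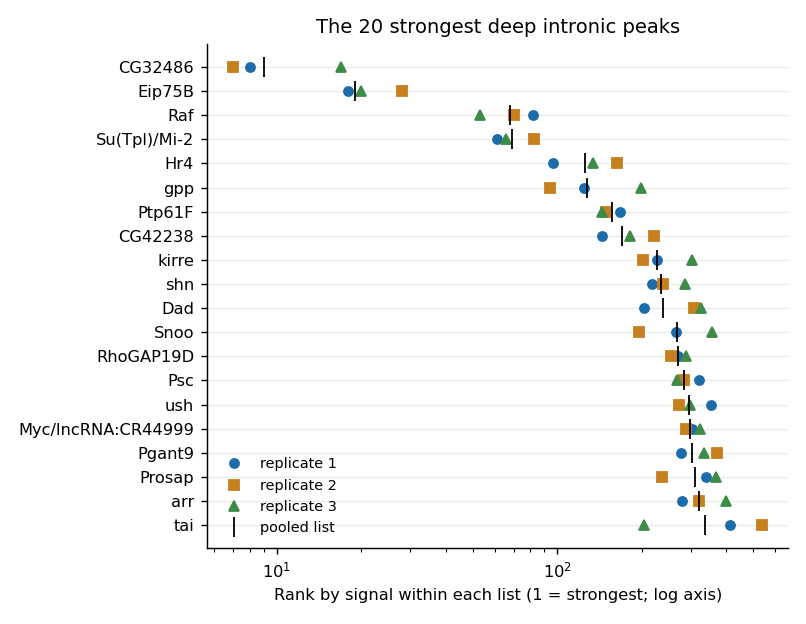
Rank by the authors' signal (horizontal log axis, 1 is strongest) of the 20 strongest deep intronic peaks in the 3 libraries (symbols) and the pooled list (bars), with host genes down the vertical axis. CG32486 and Eip75B lie between ranks 7 and 28 in the 3 libraries, apart from the other 18.

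The 1084 summits fell in 454 genes, termed hosts, and 439 of these are protein-coding. That is 25.1% of the 1812 genes with any deep intron, and 64 summits lay in more than 1 gene. Of the hosts, 206 held 1 summit, 187 held 2 to 4 and 61 held 5 or more. These 61 genes together held 398 members, or 36.7%. Another member lay within 5 kb of 627 summits, and the median distance to the nearest other member was 3.67 kb. The nearest start site belonged to a host in 55.4% of cases.

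Tet, the fly homologue of the mammalian Ten-eleven translocation dioxygenases, held the most, 19 in the pooled list and 18, 17 and 15 in replicates 1, 2 and 3. Its deep intron measures 65.8 kb. The 19 summits spanned 73.5 kb of the gene (3L from 2786207 to 2879158, minus strand), with ranks between 1110 and 7601, and 14 were recovered in all 3 libraries. No IDR-thresholded summit lay within 500 bp of a start site of Tet. The strongest of the 19, with its summit at 3L position 2847471, ranked 1320, 1127 and 996 in replicates 1, 2 and 3. The median pooled rank of the 19 was 5652. The strongest IDR-thresholded peak in Tet, of rank 121, lay in an intron within 5 kb of a start site and was not among the 19. A pair of the members in Tet, with summits at 2795737 and 2795936, matched the same library summit in each replicate.

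kirre, which encodes an immunoglobulin-family adhesion protein of myoblast fusion, held 17 members in the pooled list and 16, 21 and 18 in replicates 1, 2 and 3. Its deep intron measures 226 kb, so that its density of 0.751 members per 10 kb was below the 2.89 of Tet. SKIP held 14, lncRNA:CR32773 held 13 and heca, the headcase gene, held 12. Snoo and lncRNA:CR44357 held 11 each. The corepressor gene sbb, the cadherin gene ds and the homeobox gene hth held 9 each, as did Mnt and lncRNA:CR44833, which tied with them. Mnt, which encodes a partner of Max related to Myc, held its 9 members in 8.93 kb of deep intron, or 10.1 per 10 kb, and had 8, 8 and 9 in replicates 1, 2 and 3.

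**Figure D3:**
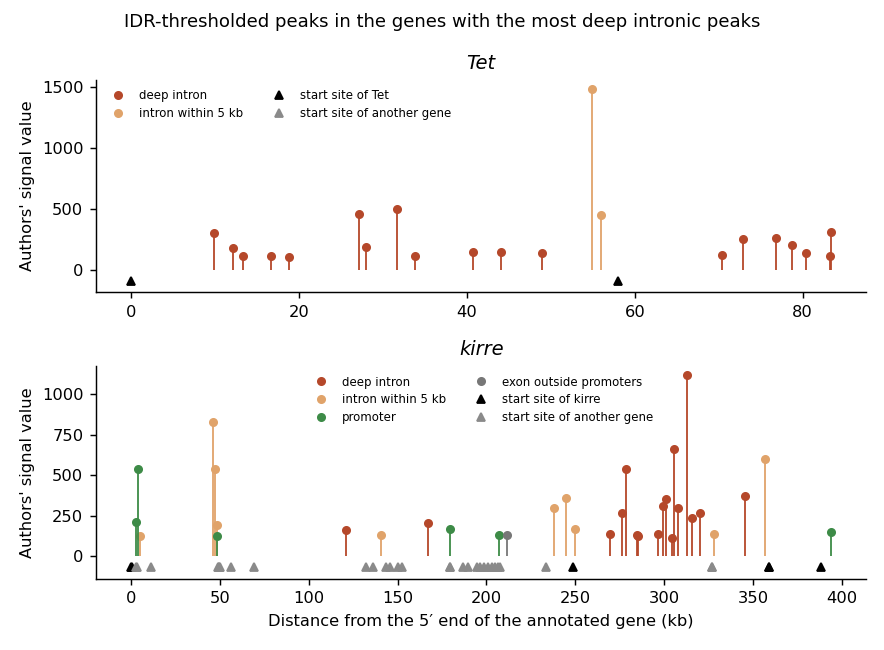
Authors' signal (vertical axis) of every IDR-thresholded peak in Tet (upper panel) and kirre (lower panel) by distance from the 5′ end of the annotated gene in kb; colours give the location class and triangles mark annotated start sites. The 19 deep intronic summits of Tet spread over 73.5 kb, and the 17 of kirre reach their highest signal, 1119, at the summit of rank 228.

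Hosts differed widely by function. The lists below were drawn up for the tissue and stage, with earlier results of these data known. The share of genes that were hosts rose with deep intron, from 7.87% with up to 5 kb to 56.7% with more than 50 kb. The shares of hosts in the lists and the background of 25.1% were not matched for this length. Chromatin and BTB transcription factor genes had 7 hosts among the 17 with deep intron, or 41.2% beside the background of 25.1%, and 136, 119 and 119 summits per Mb in replicates 1, 2 and 3, against 37.8, 40.6 and 37.7 per Mb over all genes. The 4 hosts with the strongest member were Mi-2, gpp, Psc and trx, the trithorax gene, with best ranks of 69, 128, 283 and 1383. Signalling pathway genes had 16 hosts of 28, or 57.1%, and 101, 104 and 104 summits per Mb. The Wnt receptor gene fz held 8, with a best rank of 358, and N, which encodes the Notch receptor, held 2 with a best rank of 528. Pka-C3, a protein kinase A catalytic subunit gene, and dpp, which encodes a BMP ligand, followed with best ranks of 744 and 950. Both lists lay above all genes in every library. The chromatin list had 3.12 times the pooled density of all genes, and 5.51 times among the 3858 peaks with the highest signal. It rests on 14 members in 0.117 Mb of deep intron, of which gpp held 4 and trx 3. The ratio was 2.8 per unique sequence and 4.115 with the limit at 10000 bp. Within 5 to 20 kb of a start site the chromatin list had 127 per Mb, against 49.5 per Mb over all genes.

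Insulin, TOR and growth genes had 3 hosts of 7, or 42.9%, and 81.9 summits per Mb in each library, from 7 members. The density was 2.14 times that over all genes, and 1.13 times with the limit at 10000 bp. The hosts were Myc with 3 members, the insulin receptor gene InR with 3 and foxo, its downstream transcription factor gene, with 1. In replicates 1, 2 and 3, InR had 4, 2 and 2 summits and foxo 0, 1 and 2. The equal densities thus came from different summits. Patterning transcription factor genes had 19 hosts of 42, or 45.2%, and 76.4, 73.7 and 66.7 summits per Mb in replicates 1, 2 and 3. Among them ush, a cofactor of GATA factors, held 4 members with a best rank of 296, the homeobox genes ct and Antp held 4 and 6, and hth held 9.

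Ecdysone response genes had 11 hosts of 15 with deep intron, or 73.3%, and 73.3, 67.6 and 64.8 summits per Mb in replicates 1, 2 and 3. All 3 values exceeded those over all genes. The pooled density was 1.84 times that over all genes, and 2.82 times among the 3858 strongest peaks. It was 1.54 times with the limit at 10000 bp and 1.695 times per unique sequence. Within 5 to 20 kb of a start site it was 67.8 per Mb, against 49.5 per Mb over all genes. Eip75B held 6 members. Hr4 and tai held 4 each, and Eip74EF, an Ets-family early gene, held 3, with its strongest at ranks 894, 662 and 529 in replicates 1, 2 and 3. Eip78C held 2. Hr3, Hr38, Eip93F, ImpE1, br and ftz-f1 held 1 each. Hr3 encodes the nuclear receptor DHR3, and its member, in an intron shared with CG46321 and CG12912, ranked 1276, 1131 and 1386. The members in br and ftz-f1 were weak, with pooled ranks of 6139 and 7477, and ftz-f1 had a deep intronic summit in replicate 1 alone among the strongest peaks.

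The other 4 lists had lower densities than all genes in every library, although their shares of hosts did not all lie below the background of 25.1%. Ion channel and neurotransmitter receptor genes had 6 hosts of 51, or 11.8%, and 3.64, 7.29 and 6.38 summits per Mb in replicates 1, 2 and 3, although 91.6% of their 1.10 Mb of deep intron is unique. Their 9 members included 2 in nAChRalpha6, a nicotinic acetylcholine receptor subunit gene, with a best rank of 2374. Another 2 lay in dnc, the dunce phosphodiesterase gene, which the list holds although it encodes neither a channel nor a receptor. The pooled density of this list was 0.214 times that over all genes. It was 0.145 times without replicate 1, 0.0577 times without replicate 2, 0.0864 times without replicate 3, 0.0535 times among the 3858 strongest peaks and 0.358 times with the limit at 10000 bp, all from 9 members or fewer. Axon guidance and cell adhesion genes had 18 hosts of 80, or 22.5%, close to the background, and 24.3, 30.3 and 25.8 summits per Mb, and 17 of their 64 members lay in kirre. RNA-binding protein genes had 11 hosts of 20, or 55.0%, above the background, and 19.2, 21.9 and 20.1 per Mb, with the translational repressor genes brat and pum holding 4 and 5 members. Relative to all genes its pooled density was 0.596, and 0.323 among the 3858 strongest peaks. Muscle structural genes had 1 host of 14, or 7.14%, which was Zasp52 with 2 members, and 21.0, 31.5 and 21.0 per Mb. Neither member lay beyond 10000 bp.

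**Figure D4:**
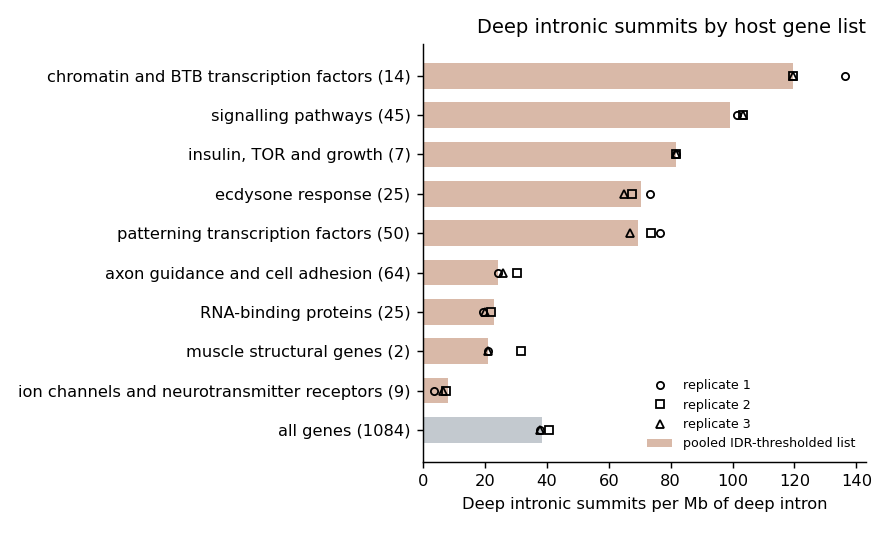
Deep intronic summits per Mb of deep intron (horizontal axis) in 9 gene lists and over all genes (vertical axis), with the number of members in brackets; bars show the pooled list and symbols the 3 libraries. Chromatin and BTB transcription factor genes stand highest at 119 per Mb and ion channel and neurotransmitter receptor genes lowest at 8.20 per Mb.

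Hosts had CG31627 at their own promoters more often than other genes with deep intron. An IDR-thresholded summit lay within 500 bp of a start site in 172 of 454 hosts, or 37.9%, beside a background of 29.6% over genes with deep intron and 22.3% over all genes. In replicates 1, 2 and 3 the share was 39.7%, 34.5% and 41.0% of hosts, against 26.7%, 26.2% and 27.7% of genes with deep intron and no summit in it. The groups did not overlap. Hosts are also longer, with a median of 16.2 kb of deep intron, against 3.61 kb in the others. Among genes with 20 to 50 kb of deep intron the share was 41.3% of 126 hosts, against 14.6% of 158 others, and among those with up to 5 kb it was 36.4% of 66 hosts, against 32.3% of 773 others. The start site nearest to a member had a peak in 229 cases, or 21.1%. The share over start sites in general was not computed, so this value has no background beside it.

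The summits were rich in A and T. The A+T content of the 101 bases at the summit was 67.6% over the 1084 members, against 57.0% in windows 500 bp away on both sides and 59.7% over all 271592 such windows that tile deep intron. The difference between summit and flanks was 10.3 ± 0.499 percentage points over the libraries (SD, n = 3) and positive in 3 of 3. Summit exceeded flanks in 945 members, or 87.2%. The curve had its highest value, 68.6%, at the summit and dropped below the deep intron level on either side, to 53.1% at 260 bp before and 53.9% at 280 bp after it. Between 800 and 980 bp it averaged 59.6%. The flanks at 500 bp therefore lay below the general level of deep intron. The 207 members among the 1929 strongest peaks had 68.8%, and the 329 among the weakest 67.2%. Near-intron and deep intergenic summits had 67.4% and 67.9%, and promoter summits 64.4%.

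**Figure D5:**
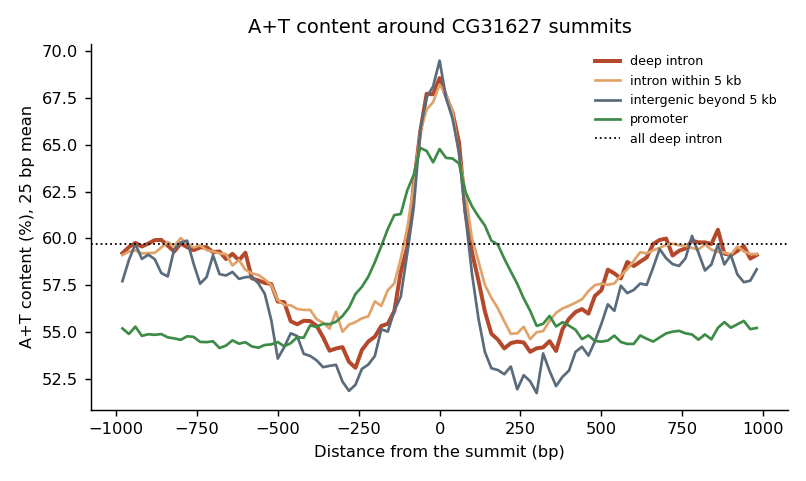
A+T content in percent (vertical axis, mean over 25 bp) by distance from the summit in bp (horizontal axis) for deep intronic peaks (thick red), introns within 5 kb, intergenic sequence beyond 5 kb and promoters; the dotted line is all deep intron at 59.7%. The deep intronic curve reaches 68.6% at the summit and 53.1% at 260 bp before it.

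Short words were counted on both strands in the 101 bases at the summit. Of the 26 motifs searched, 13 were more frequent at summits than in flanks and in deep intron windows in every library, and 9 exceeded neither in any library. The word TATAAA occurred at 22.3% of members, against 10.1% of flanks and 12.7% of all deep intron windows. TTTAAAAA occurred at 5.63%, against 1.57% and 2.60%. Against deep intron windows with the A+T content of the members, 8 of the 13 motifs had a higher share at the members and 5 a lower one, and of the 9 motifs 4 had a higher share. Such windows held TATAAA in 21.8% and TTTAAAAA in 5.24%. The members had the homeodomain word TAATTA in 9.32% and the Sox word AACAAT in 12.6%, and such windows in 11.1% and 14.7%. The members had CATATG in 4.61% and the AP-1 word TGANTCA in 3.32%, and such windows in 3.10% and 2.11%. The CTCF core AGGNGGC, among the 9, stood at 1.85% of members, against 1.31% of such windows.

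Words of housekeeping promoters were less frequent than at CG31627 promoter summits. TATCGATA was found at 3 members, in Dmtn, kek5 and lncRNA:CR32773, or 0.277%, against 0.0923% of flanks and 0.217% of deep intron windows. Its share exceeded that of the flanks in 1 of 3 libraries and that of deep intron windows in 0 of 3. Deep intron windows with the A+T content of the members held it in 0.323%. At promoter summits of CG31627 the share was 3.69%. CGATA, the core of the BEAF-32 word and part of TATCGATA, occurred at 10.5% of members and 10.5% of deep intron windows, and at 22.6% of promoter summits. GGTCACAC, the core of the promoter word Ohler 1, occurred at 7 members, or 0.646%, against 0.0461% of flanks and 0.150% of deep intron windows, and exceeded both in 3 of 3 libraries. At promoter summits it stood at 1.68%. Among the 3858 strongest peaks its excess over flanks was 0.312 percentage points, against 0.600 in all members. These 7 lay in S, CG43658, tna, Myc, nmo, sdt and SKIP, with pooled ranks between 988 and 7202. The dinucleotide repeat CACACACA occurred at 0.646% of members, against 3.37% of flanks and 2.65% of deep intron windows. The E-box CAGCTG occurred at 1.66%, against 4.61% and 3.50%. In windows of the same A+T content CACACACA had 1.43% and CAGCTG 1.82%.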

How the data were processed

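The lists used are narrowPeak files on dm6 for 3 libraries, for the libraries pooled, and for the pooled peaks past the IDR threshold, per the file headers and labels. Chromatin was sheared to 200 to 800 bp, per the labels' protocols. The signal of each peak is the authors' own value, deposited with no stated scale, and served only for ranks within a list. The q value is deposited as −log10 q by the authors. The library and pooled lists hold background on purpose, per the deposited listing. Which aligner and peak caller made them is not stated in the labels or listings. The dm3 lists were not used here.

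Summits were placed with Ensembl release 115 (BDGP6.54, the dm6 sequence), 18164 genes on 6 arms, without 5809 transposable elements. Each library contributed its 7717 strongest peaks. Motifs and A+T content were read in 101 bp at the summit, in flanks 500 bp away, and in 101 bp tiles of deep intron. Unique sequence consists of 31-base words found once. Values are means ± SD over 3 libraries. Exact two-sided sign-flip permutation tests were run on the density ratios between location classes and on the A+T differences. The other comparisons are descriptions without a test. Intervals are Wilson's and cover counting alone. Functions were tested on simulated summits. Python 3.11.15, numpy 2.4.6, pandas 2.3.3 and scipy 1.17.1 were used. Nothing beyond the replicate label says that the animals were separate, so the SD may be partly technical. Named genes were the hosts of the 20 strongest members, the 10 genes with most members (ties named too), up to 4 hosts per list with the strongest member, every ecdysone host, and 3 members on each side of the limit. Members, lists, motifs and tests were chosen with earlier results of these data known. One gene list and a few symbols that were not matched are not reported here.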

Additional observations from a re-analysis of the deposited data

How the results depend on the processing

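No comparison between groups was possible because the series has 1 group. The sign-flip tests used ratios and differences taken within each library. Of 59 alternative values for the main results, 31 stayed within the spread between libraries, the counting interval or 1.5 times the main count, and 28 moved beyond it. A turn of direction was defined only for the relative density and the A+T difference, and neither turned. The other main results could only stay or move. With a limit of 2000 bp the share of deep intronic summits was 24.7% and their density relative to the arms 0.797, and with 10000 bp 6.19% and 0.482. With start sites of protein-coding genes alone the values were 16.1% and 0.694. With the outermost start site of each gene, an alternative chosen after seeing the data, they were 21.7% and 0.856, for 1671 summits. The 3858 peaks with the highest signal gave 12.5% and 0.590, and pooled peaks that missed the IDR threshold but had q at or under 0.05 gave 17.3% and 0.820. With unique 31-base words as the length the relative density was 0.714. Recovery in all 3 libraries was 71.1% within 100 bp, 91.8% with all library peaks of q at 0.05 or less, and 98.8% among the 3858 strongest peaks. Recovery in both remaining libraries without 1 replicate ran from 82.2% to 82.5%. The A+T difference was 8.26 points with 100 bp on either side, 8.37 with flanks 1000 bp away and 11.3 beyond 10000 bp. The share of hosts with a promoter peak was 26.7% within 250 bp and 49.8% within 1000 bp. It was 23.7% among the 3858 strongest peaks, and 31.5% to 34.1% without 1 replicate. The share of other genes was not computed under these settings, so the excess of hosts was not tested there. For single motifs and lists, 1 of 102 alternatives turned direction: CGATA lay 0.624 points below its flanks (-0.624) among the 3858 strongest peaks. The number of gene lists above all genes in every library was 5, and 4 with a limit of 10000 bp. With flanks 1000 bp away the excess of TATCGATA was 0. The cause was not tested. The 3 libraries limit every test to p = 0.25 by the exact permutation; library depth is unknown.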

Other observations

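The 5 genes with the most deep intron held no member. Those of Myo81F, Pzl, lovit, CG17684 and DIP-lambda measure 1905, 689.9, 417, 378 and 372 kb, and between 33.8% and 40.6% of their sequence is unique. Among long genes with mostly unique sequence, bru3 (215 kb, 93.9% unique), dpr8 (119 kb, 95.8%) and rg (111 kb, 93.1%) held no deep intronic summit in the pooled list or in any of the 3 libraries. bru3 encodes a Bruno-family RNA-binding protein and dpr8 an immunoglobulin-domain protein of neuronal surfaces.

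Of the 1084 summits, 5 lay in annotated transposable elements, in CG6040, sima, Hs6st, kek5 and Ten-a, with 95.3% to 100% unique words around them. The Zelda word CAGGTAG occurred at 1 member, in CG8312, and the word CACGTG at 3, in crp, msn and Tet. These genes were named after their values were seen.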
